A study of Canis lupus familiaris with 12 samples.

Results

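CXCL8, CXCL10 and CXCL12 are chemokines of the CXC class, and their transcripts were measured in dog kidney cells kept in acid or control medium. Every gene probe assigned to a RefSeq transcript of these 3 dog genes was taken, whatever its brightness. That gave 7 of the array's 43603 gene probes: 4 for CXCL8 (transcript NM_001003200, formerly named IL8), 2 for CXCL10 (NM_001010949) and 1 for CXCL12 (NM_001128097). Of the 7 probes, 6 were bright enough to be tested, and the CXCL12 probe was not. The second RefSeq transcript of CXCL12 had no probe under its accession.

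The cells were Madin-Darby canine kidney (MDCK) cells, an established epithelial line from dog renal tubule with no genetic change named for either group. They had been grown to confluence and moved to serum-free medium, then held for 24 h at pH 7.0, reached by lowering the bicarbonate of the medium, or at pH 7.4. Each of 3 biological replicates, extracted on its own date, gave 1 RNA extract per pH, and each of the 6 extracts was hybridised to 2 one-colour (Cy3) Agilent arrays, 12 in all. Which 2 arrays belong to an extract was read from their numbers and is not stated by a label. The question was whether acid medium changes the transcripts of inflammatory cytokines in these cells.

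Chemokines are small secreted proteins that guide migrating cells through G protein-coupled receptors. CXCL8 carries the ELR motif before its CXC cysteines, binds CXCR1 and CXCR2 and attracts neutrophils, and in epithelia its gene is a classic target of NF-kappaB. CXCL10 lacks that motif, binds CXCR3 on activated T cells and is induced by interferons, from which it has its older name, interferon-inducible protein. CXCL12 is the ligand of CXCR4 and is also bound by the scavenging receptor ACKR3. It is typically a constitutive product of stromal cells.

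The arrays of biological replicate 2 had the smallest shares of probes well above background, 49.4% to 54.1%, against 62.2% to 70.4% on the other 8. Each biological replicate occupied a slide of its own, so the replicate and the slide cannot be told apart. Levels are log2 values of the processed signal, scaled so that 0 is the 75th percentile of the array. Changes are differences of that value, pH 7.0 minus pH 7.4, within a biological replicate. They carry the standard error of a limma fit with the biological replicate as a block (n = 3 pairs of extracts) and a p adjusted by Benjamini-Hochberg over 27136 tested probes. An exact sign-flip test over 3 pairs cannot give a two-sided p below 0.25.

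CXCL8 was higher at pH 7.0 by estimate on all 4 of its probes, by 1.7-fold to 2.0-fold, and did not pass the test. Among the alternatives run, 2 of the dimmer probes turned negative under normexp, another background correction, at -0.052 and -0.30. The other dimmer probe stood at 0.034, where the median of all tested probes was -0.19. An alternative chosen after seeing the data used the array's median background for spots far below their local background. Under it the same probes stood at 0.57, 0.36 and 0.48, in that order, where the median of all tested probes was 0.027. In bulk RNA, more producing cells and more transcript per cell cannot be told apart. On its brightest probe, A_11_P0000019918, the processed signal was 172 at the lowest, 477 at the median and 601 at the highest of the 6 pH 7.0 arrays. On the 6 pH 7.4 arrays it was 158, 213 and 282, in the same order and before any scaling between arrays. That probe was well above background on all 12 arrays, with a spot signal 5.51 to 23.7 times the local background.

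The log2 values of CXCL8 on this brightest probe were -2.13, 0.25 and -0.36 in the pH 7.0 extracts of biological replicates 1, 2 and 3. In the pH 7.4 extracts they were -2.25, -1.42 and -1.15. The 2 extracts of biological replicate 1 were the lowest of their groups, and the groups overlapped, since the pH 7.0 extract of that replicate lay under all of the pH 7.4 extracts but its own partner. The changes within replicates were 0.13, 1.68 and 0.79, or 1.09-fold, 3.20-fold and 1.73-fold. The fitted change was 0.86 ± 0.30 (SE, n = 3 pairs; limma, 95% interval 0.20 to 1.53, adjusted p = 0.290). CXCL8 on this probe was higher in 3 of 3 biological replicates, as were 18.0% of all tested probes. In biological replicate 1, however, its pH 7.0 and pH 7.4 arrays overlapped. The change there, 0.13, was smaller than the median difference between the 2 arrays of an extract, 0.28. The fitted change was exceeded by that of 1.82% of tested probes. The exact sign-flip test gave the smallest p it can give, 0.25.

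**Figure D1:**
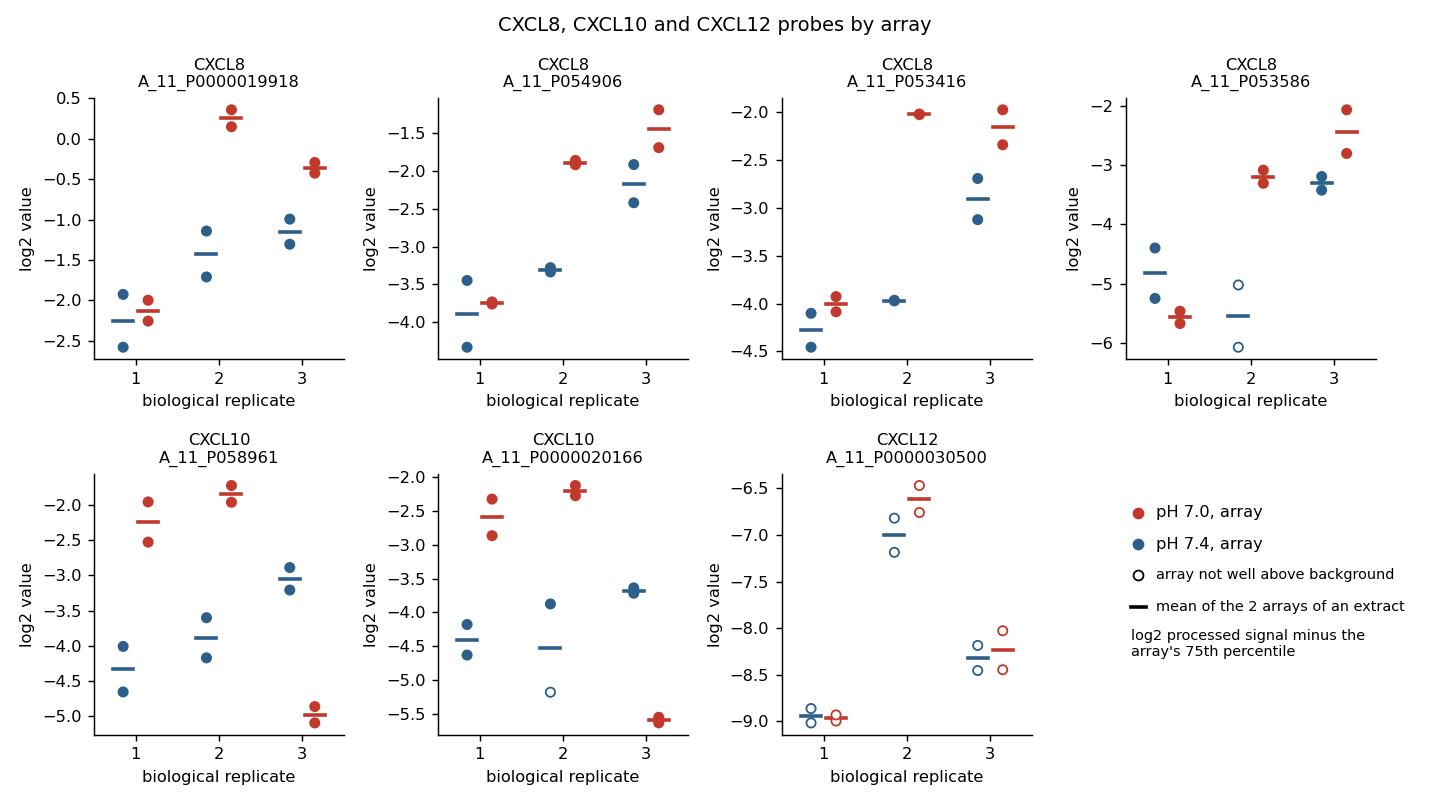
Log2 value (0 is the 75th percentile of the array) of each of the 7 probes on the 12 arrays, by biological replicate. Red points are pH 7.0 arrays and blue points pH 7.4 arrays, open where the probe was not well above background, and short lines are the mean of the 2 arrays of an extract. CXCL8 values separated by pH most widely in biological replicate 2, whereas the pH 7.0 arrays of CXCL10 lay above the pH 7.4 arrays in biological replicates 1 and 2 and below them in 3.

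The other 3 CXCL8 probes gave similar estimates from dimmer spots. Probe A_11_P054906 stood at 0.76 ± 0.27 (adjusted p = 0.311 in limma) and probe A_11_P053416 at 0.99 ± 0.31 (adjusted p = 0.254). Both were well above background on all 12 arrays and higher in 3 of 3 biological replicates. In biological replicate 1 the arrays of the 2 pH groups overlapped on A_11_P054906 and lay 0.016 apart on A_11_P053416. Probe A_11_P053586 stood at 0.83 ± 0.46 (limma adjusted p = 0.512) and differed in sign in biological replicate 1, where it was -0.75. It cleared background on all 6 pH 7.0 arrays and on 4 pH 7.4 arrays. The 2 pH 7.4 arrays that missed were both of biological replicate 2, where its change was largest, 2.36. Over all 4 probes the change ran from -0.75 to 0.27 in biological replicate 1, from 1.42 to 2.36 in biological replicate 2 and from 0.73 to 0.87 in biological replicate 3. The probes thus agreed within 0.15 in biological replicate 3 and differed by 1.02 and 0.94 in the others. Across the 6 extracts the 6 pairs of CXCL8 probes correlated at a Pearson r of 0.791 to 0.969, a description, since these probes read the same transcript in the same extracts.

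All 6 tested probes of CXCL8 and CXCL10 were above 0 by estimate, as were 51.3% of all tested probes, and 3 of the 6 moved in 1 direction in all 3 biological replicates, as did 33.7%. For 0 of the 6 did the 3 pH 7.0 extracts all lie above the 3 pH 7.4 extracts, which 4.48% of tested probes did. Of the 6 probes, 0 had a limma adjusted p under 0.05, where 0% of all tested probes were called in either direction. At an unadjusted limma p under 0.05, 3 of the 4 CXCL8 probes and 0 of the 2 CXCL10 probes were higher, against 6.48% of all tested probes. These probes of one gene share their extracts and do not count as separate evidence. The CXCL8 estimate leaned on biological replicate 2: on the brightest probe it was 0.46 (adjusted p = 0.736) without that replicate and 1.23 (adjusted p = 0.0609) without biological replicate 1. Without biological replicate 1 the dim probe A_11_P053586 passed, at 1.62 (limma adjusted p = 0.0258). It stood at 0.064 without biological replicate 2 (limma adjusted p = 0.994).

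On the processed signal, CXCL10 was about 4-fold higher at pH 7.0 in biological replicates 1 and 2. It was about as much lower in biological replicate 3, so that its mean change was smaller than its spread. Its estimate was positive, but turned negative on both probes under normexp, at -0.093 and -0.17. By biological replicate, normexp gave the brighter probe 1.26, -0.66 and -0.88. With the array's median background for spots far below their local background it gave 1.26, 1.07 and -0.88. The size of the CXCL10 fold thus depended on the background correction, as did its sign in biological replicate 2. The processed signal of its brighter probe, A_11_P058961, was 184 and 143 on the 2 pH 7.0 arrays of biological replicate 1. It was 130 and 125 on those of biological replicate 2, and 23.5 and 18.0 on those of biological replicate 3. The pH 7.4 arrays of the same probe read 29.0 and 58.5, then 34.0 and 42.2, then 94.0 and 55.4. Biological replicate 3 therefore held both the lowest CXCL10 values of the pH 7.0 group and the highest log2 values of the pH 7.4 group.

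On the log2 scale, A_11_P058961 stood at -2.24, -1.84 and -4.99 in the pH 7.0 extracts of biological replicates 1 to 3. It stood at -4.34, -3.89 and -3.05 in the pH 7.4 extracts. Changes within replicates were 2.10, 2.05 and -1.94, that is 4.29-fold and 4.15-fold higher and 3.84-fold lower. The groups overlapped, with the pH 7.0 extract of biological replicate 3 below every pH 7.4 extract. The fitted change of CXCL10 was 0.74 ± 0.65 (SE, n = 3 pairs; limma, 95% interval -0.71 to 2.19, adjusted p = 0.703), higher in 2 of 3 biological replicates (exact sign-flip p = 0.5). The standard deviation over extracts was 1.72 at pH 7.0 and 0.65 at pH 7.4. At pH 7.0 CXCL10 thus varied more between extracts than the mean difference between the groups. The other CXCL10 probe, A_11_P0000020166, gave 1.81, 2.33 and -1.92 and a fit of 0.74 ± 0.65 (limma adjusted p = 0.701). It cleared background on all 6 pH 7.0 arrays and on 5 of the pH 7.4 arrays.

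**Figure D2:**
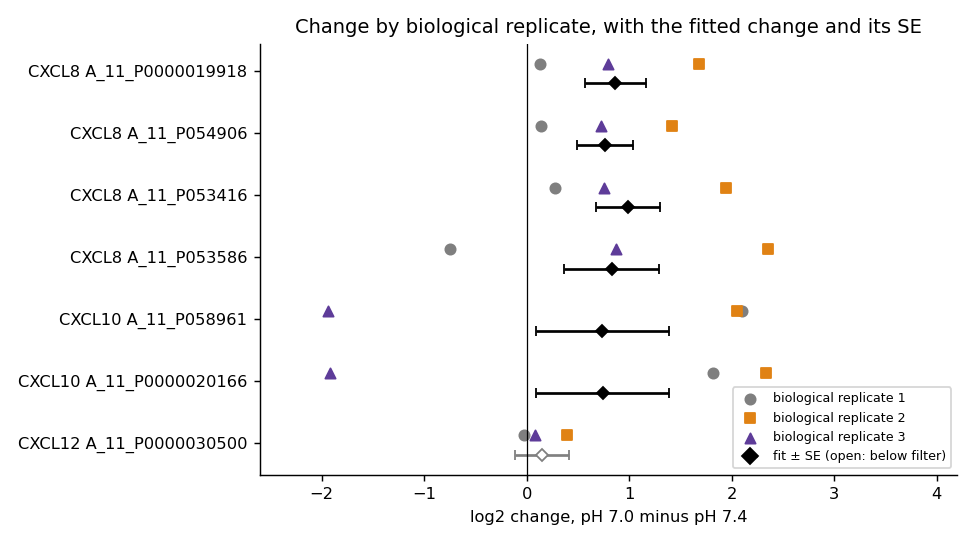
Log2 change (pH 7.0 minus pH 7.4) of each probe in biological replicate 1 (grey circles), 2 (orange squares) and 3 (purple triangles), with the limma estimate as a diamond and its standard error as a bar. The 2 CXCL10 probes stood near -1.9 in biological replicate 3 and between 1.81 and 2.33 in the others; the open diamond is CXCL12, which did not reach the filter on dim probes.

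The 2 arrays of each extract gave CXCL10 differences of the same sign in every biological replicate. On A_11_P058961 both pH 7.0 arrays lay above both pH 7.4 arrays by at least 1.49 in biological replicate 1 and 1.65 in 2, and below them by at least 1.66 in biological replicate 3. The 2 arrays of an extract differed by 0.23 to 0.65 on that probe, against a range of 4.04 between the changes of the biological replicates. On the dimmer probe, A_11_P0000020166, they differed by 0.079 to 1.31, against a range of 4.25. The 2 CXCL10 probes correlated at a Pearson r of 0.984 over the 6 extracts. Their changes had a standard deviation over biological replicates of 2.32, larger than that of 99.9% of tested probes. The median tested probe had 0.37. For the 4 CXCL8 probes it was 0.64 to 1.55, larger than that of 83.6% to 99.4% of tested probes. Without biological replicate 3 the brighter CXCL10 probe stood at 2.08 ± 0.28 (limma adjusted p = 0.113). It stood at 0.057 without biological replicate 1 and at 0.080 without biological replicate 2. The other probe stood at 2.07 without biological replicate 3 and at -0.053 without biological replicate 2.

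**Figure D3:**
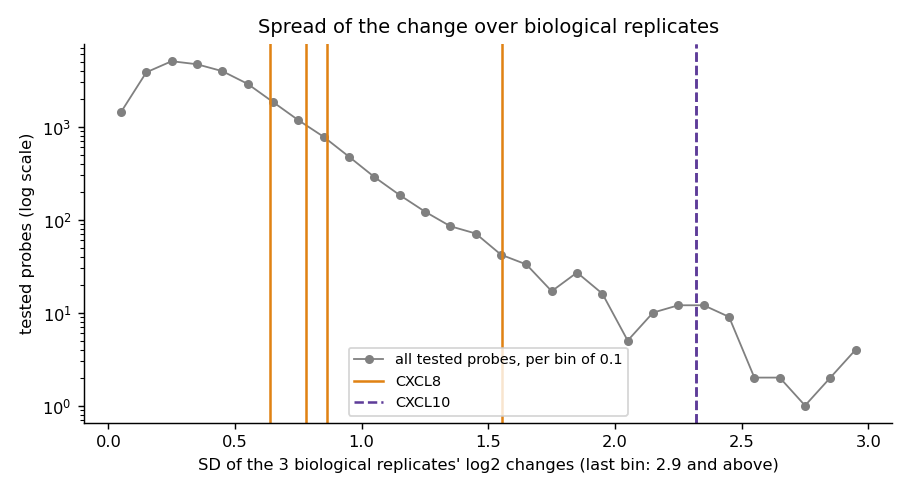
Number of tested probes (log scale) by the standard deviation of their log2 change over the 3 biological replicates, in bins of 0.1, with vertical lines at the 4 CXCL8 probes (solid) and the 2 CXCL10 probes (dashed, overlapping). The last bin holds all probes of 2.9 and above. The CXCL10 lines at 2.32 lie in the far tail, beyond 99.9% of tested probes, and the CXCL8 lines lie between 0.64 and 1.55.

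Few probes of the array shared the CXCL10 pattern. A log2 change over 1 in biological replicates 1 and 2 and under -1 in biological replicate 3 was met by 4 of 27136 tested probes (0.0147%), and both CXCL10 probes were among them. The other two, ENSCAFT00000014321 (1.50, 1.81 and -1.36) and ENSCAFT00000017041 (1.03, 1.77 and -1.10), have no gene name here. The mirror pattern was met by 3 probes (0.0111%), none with a gene name. This threshold was chosen after the values were seen, and the counts are a description.

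CXCL12 did not clear the limit of detection at either pH. Its probe, A_11_P0000030500, was well above background on 0 of 12 arrays. The processed signal was 1.39 at the lowest, 2.39 at the median and 5.68 at the highest of the pH 7.0 arrays, and 1.58, 1.90 and 5.24 on the pH 7.4 arrays. On each of the 12 arrays it lay under the lowest signal that was called well above background there, which ran from 6.39 to 27.2. It was also under 2 times the scanner program's own error estimate on all 12. Its median spot signal was 0.846 to 2.76 times the local background, and the scanner program called it positive and significant on 1 array, of pH 7.0. Since it was not well above background in either group, no fold is given. Fitted without the filter on dim probes, the difference of CXCL12 was 0.15 ± 0.26 (limma adjusted p = 0.983, 95% interval -0.42 to 0.72), with -0.024, 0.39 and 0.083 in the 3 biological replicates. At this brightness a difference in CXCL12 was not detectable. The highest log2 values, -6.61 at pH 7.0 and -7.00 at pH 7.4, were both of biological replicate 2, whose arrays also had the highest lower limits of detection.

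**Figure D4:**
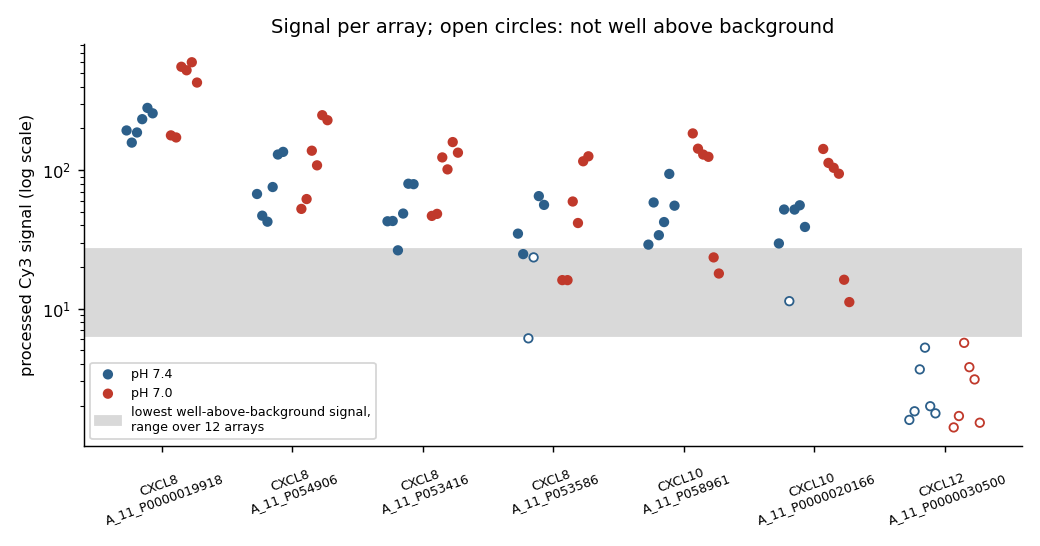
Processed Cy3 signal (log scale, before scaling between arrays) of each probe on the 6 pH 7.4 arrays (blue) and the 6 pH 7.0 arrays (red), open where not well above background. The grey band is the range over the 12 arrays of the lowest signal called well above background, 6.39 to 27.2; all 12 CXCL12 points are open and lie under it.

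Other genes of the 3 ligands' pathways were read from lists of ligands, receptors, inducers and targets, each gene by its brightest tested probe. Of 13 further CXC chemokines, among them CXCL1, CXCL9 and CXCL11, 0 had a named probe. Among 9 receptors and scavengers, 3 had one. ACKR3, the scavenger of CXCL12, was well above background on all 12 arrays and saturated on 1 of them, and stood at 0.23 ± 0.22 (limma adjusted p = 0.733). CXCR3, the receptor of CXCL10, was dim, clearing background on 9 of 12 arrays, and stood at -0.017 ± 0.22 (adjusted p = 0.983). CXCR2, a receptor of CXCL8, was too dim to test, with no probe clearing background on more than 2 pH 7.0 arrays or 1 pH 7.4 array. In the list of hypoxia and CXCR4 signalling, 0 of 4 tested genes passed. Its lowest p belonged to VEGFA, an angiogenic growth factor (-0.49 ± 0.24, limma adjusted p = 0.443). The next, the glucose transporter SLC2A1, was saturated on all 12 arrays, so no difference is given for it.

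CXCL8 shared the sign of its estimates with the CC chemokines, the class that mainly attracts monocytes and lymphocytes. Of 17 CC chemokine genes with a named probe, 8 were too dim to test. All 9 tested CC chemokine genes were higher by estimate, against 51.3% of all tested probes. Under normexp 7 of the 9 were higher, against 9749 of 27136 tested probes. Without biological replicate 2, 8 of the 9 were higher, against 13599 of 27136. Of the 9, 6 were higher in 3 of 3 biological replicates, against 18.0% of all tested probes. At an unadjusted limma p under 0.05, 5 were higher, against 6.48%, and 0 passed the adjusted threshold. Their median change was 1.37, against 0.012 over all tested probes. Under normexp it was 0.45, against -0.19, and with the array's median background for spots far below their local background it was 0.53, against 0.027. Over the 6 genes well above background on all 12 arrays it was 0.96, against 0.022 for all probes under that filter. The lowest p belonged to CCL8, a monocyte attractant (1.90 ± 0.31, limma adjusted p = 0.0754), and CCL28, a mucosal chemokine (1.38 ± 0.25, adjusted p = 0.102). CCL28 cleared background on 6 pH 7.0 arrays and on 4 pH 7.4 arrays. CCL17, counted among the 9, was saturated on 2 arrays. The median changes of the 9 genes by biological replicate were 0.73, 2.31 and 1.05, and CXCL8 too had its largest change in biological replicate 2.

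Genes upstream of CXCL8 were sparse among the tested ones. Of 10 genes with a named probe in the list of upstream cytokines, NF-kappaB and AP-1, 5 were tested and 0 passed. By estimate 3 were higher and 2 lower, where 51.3% of all tested probes were higher. Under normexp 2 of the 5 were higher, against 9749 of 27136 tested probes. With the array's median background for spots far below their local background 4 were higher, against 15020 of 27136. The lowest p were those of the apoptosis inhibitor BIRC3 (0.53 ± 0.24, limma adjusted p = 0.409) and the NF-kappaB subunit NFKB1 (0.50 ± 0.23, adjusted p = 0.420), each higher in 3 of 3 biological replicates. BIRC2, the related apoptosis inhibitor, was lower in 3 of 3 by estimate (-0.41 ± 0.23, adjusted p = 0.519 in limma), and TNF stood at -0.096 ± 0.22. The inducers of CXCL8 were dim. IL1B cleared background on 0 of 12 arrays and TNF on 9 of 12. IL1A did so on 5 pH 7.0 arrays and on 0 pH 7.4 arrays.

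CXCL10 and most interferon-response genes were above 0 in biological replicates 1 and 2. In biological replicate 3, 5 of the 7 tested genes of that list were above 0 and CXCL10 was below it. Of the 7, 6 were higher by estimate, against 51.3% of all tested probes, with a median change of 0.68. Under normexp 5 of the 7 were higher, against 9749 of 27136 tested probes. With the array's median background for spots far below their local background 7 were higher, against 15020 of 27136. Of the 7, 0 passed the adjusted threshold and 4 were higher at an unadjusted limma p under 0.05, against 6.48% of all tested probes. MX1, an antiviral GTPase, was 1.92, 2.02 and 0.44 in biological replicates 1 to 3 (1.46 ± 0.32, limma adjusted p = 0.136). OAS1, an oligoadenylate synthetase that responds to viral RNA, was 1.29, 1.42 and 0.34 (1.02 ± 0.27, adjusted p = 0.188). In biological replicate 3 the list's median was 0.19 and its lowest gene, OAS2, stood at -0.14, while both CXCL10 probes stood at -1.94 and -1.92. Outside the list, EIF2AK2 stood at -0.77 and LOC477518 at -0.30 there. Both are described below and were picked for their likeness to CXCL10. Whether CXCL10 differed from these genes was not tested, since 1 biological replicate carries the difference. Among the interferons themselves, IFNB1 and IFNG were well above background on 0 of 12 arrays. IFNA7, counted among the 7 tested genes, was so on all 12 and stood at -0.18, 0.035 and 0.038 in biological replicates 1 to 3 (-0.034 ± 0.22, limma adjusted p = 0.968).

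**Figure D5:**
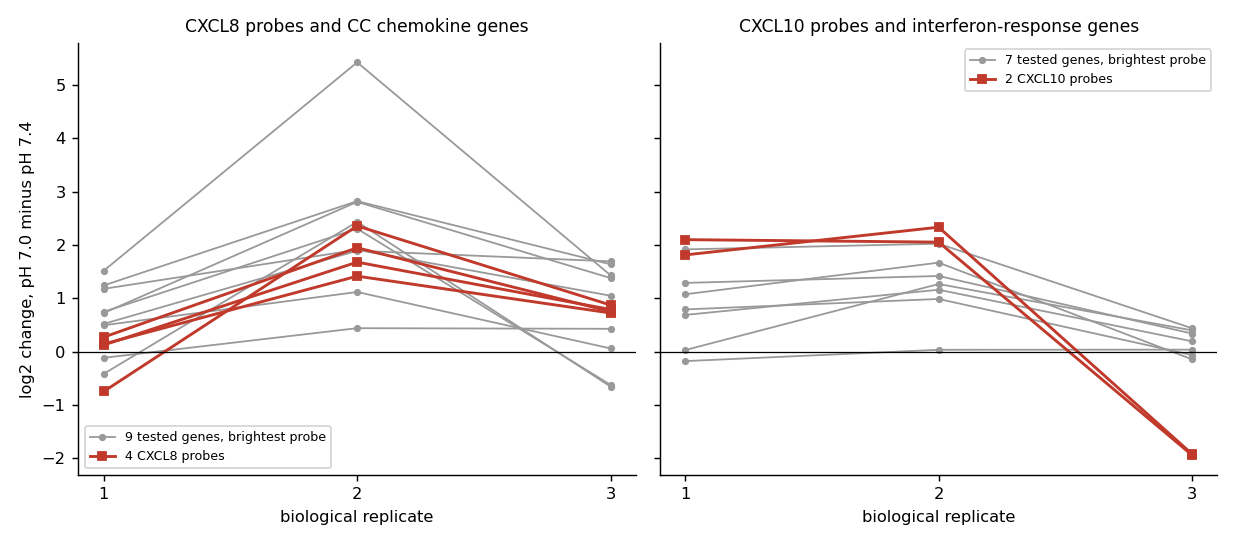
Log2 change (pH 7.0 minus pH 7.4) by biological replicate, with lines joining the values of 1 probe: left, the 4 CXCL8 probes (red) and 9 tested CC chemokine genes (grey); right, the 2 CXCL10 probes (red) and 7 tested interferon-response genes (grey). The CXCL8 lines peak in biological replicate 2 beside the CC chemokines, and the CXCL10 lines stand at -1.94 and -1.92 in biological replicate 3, where the interferon-response genes had a median of 0.19.

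The genes most like each member over the 6 extracts were taken as those with the highest Pearson r with its brightest probe, among 596 other genes with a symbol. For CXCL8 they were the monocyte attractant CCL2 (r = 0.953), the circadian repressor BHLHE41 (r = 0.949) and CCL8 (r = 0.948). CCL2 stood at 0.73, 2.81 and 1.38 in biological replicates 1 to 3 and BHLHE41 at 0.22, 0.64 and 0.34, the same order of replicates as CXCL8. For CXCL10 they were LOC477518 (r = 0.902), which the annotation also calls OASL2, the RNA-activated kinase EIF2AK2 (r = 0.885) and the surface protein CD47 (r = 0.859). These 3 genes stood at -0.30, -0.77 and -0.33 in biological replicate 3 and above 0 in the other two, smaller in size than CXCL10 throughout. All these correlations rest on 6 points that share slides in pairs. The genes were picked by them, so their likeness by biological replicate is a description and no separate support. CXCL8 and CXCL10 themselves correlated at 0.161.

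The epithelial label was checked on markers. Of 14 markers of kidney tubule epithelium 4 had a named probe, and the tight junction genes OCLN, CGN and TJP1 cleared background on all 12 arrays. The claudin CLDN2, dimmer, stood at 0.54, 1.95 and 0.97 in biological replicates 1 to 3 (1.15 ± 0.29, limma adjusted p = 0.174). Of 11 leukocyte markers 3 had a named probe. CD8A was dim, clearing background on 7 of 12 arrays. No CD4 probe cleared it on more than 3 pH 7.0 arrays or 2 pH 7.4 arrays. CD34 cleared it on all 12, with 0 of the 2 tested genes, CD34 and CD8A, higher at pH 7.0. Of 9 fibroblast and stromal markers 4 had one, and of 6 endothelial markers 3. Among these the collagens COL1A1 and COL1A2 and the endothelial VWF cleared background on all 12 arrays, so markers of other cell types were not absent. Of the 4 tested genes of those lists 2 were higher by estimate, and 0 had an unadjusted limma p under 0.05. Their part in the chemokine values was not tested.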

How the data were processed

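The arrays had been read with Agilent Feature Extraction 10.7.3.1, per the submitters' processing notes. The deposited scanner files give intensity values per spot, as their headers name them: a background-subtracted processed signal with its error, median spot and background signals, and flags. The deposited value table holds log2 values. Its scale and centring are not stated, and both were found by comparison: it equals the values used here with each probe centred on its median (slope 1.00 on each array). The pH 7.0 columns, arrays 1 to 6, had medians of -0.11, -0.15, 0.23, 0.21, -0.23 and 0.017. The pH 7.4 columns in that order had 0.020, -0.21, 0.21, 0.079, -0.086 and 0.066. No ratio direction applies to it.

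Outlier spots (128 over 12 arrays) were set to missing and control spots dropped. Spots of a probe were averaged as log2 of the processed signal, from which log2 of the 75th percentile (a signal of 410 to 944) was subtracted per array. The 2 arrays of an extract were averaged. Arrays 1 and 2, 3 and 4, and 5 and 6 of a group were taken as biological replicates 1, 2 and 3 from the numbers in their titles. No label states this assignment, on which every pair and standard error rests. A probe was tested where well above background on at least 6 of 12 arrays. R 4.3.3 and limma 3.58.1 gave the changes (lmFit with the replicate as a block, eBayes, two-sided, 9.67 moderated degrees of freedom); 1 tested probe had a missing extract. The study's design text pairs the samples, and the 2 extracts of biological replicates 1, 2 and 3 deviated together from their group means (r = 0.394, 0.637 and 0.807). Among unmatched extracts, pH 7.0 replicate 1 and pH 7.4 replicate 2 had r = 0.255, and the others had -0.628 to -0.024. Each replicate had its own slide, so these r cannot tell a shared replicate from a shared slide. Extracts come from 1 cell line, so p values measure variation between extractions, and 3 pairs limit the precision. RefSeq accessions without version numbers, matched to the dog annotation UU_Cfam_GSD_1.0, named 1484 probes. No genome build of the array was stated, so no coordinates are given. The fit was tested on simulated data. Figures used matplotlib 3.10.9.

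The members and lists were chosen with earlier results of these data known. The naming rule took every probe of the 3 genes, the 3 genes most like each tested member, and the 2 genes of lowest p in each pathway list. Other genes were named after their values were seen. Alternatives covered the replicate block, duplicate arrays, background correction, scaling, the value table, filters, outlier spots, prior, weights, averaging a gene's probes, the threshold, and leaving out each biological replicate or array.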

Additional observations from a re-analysis of the deposited data

How the results depend on the processing

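Over 29 alternatives the brightest CXCL8 probe stayed higher at pH 7.0, from 0.46 to 1.23, and did not pass. Some of them changed only the error, the probes entered or the threshold. Those left its estimate at 0.86 by construction and say nothing on its sign. Without the replicate block its change was 0.86 ± 0.61 (limma adjusted p = 1.00), and 0 probes of the array were called. Normexp on the backgrounds as given shifted the median of all tested probes from 0.012 to -0.19 and turned 5 probes negative: CXCL8 A_11_P053416 (-0.052) and A_11_P053586 (-0.30), CXCL10 A_11_P058961 (-0.093) and A_11_P0000020166 (-0.17), and CXCL12 (-0.62), with CXCL8 A_11_P0000019918 at 0.47 and A_11_P054906 at 0.034. On the 2 pH 7.4 arrays of biological replicate 2, 8 and 3 spots lay more than 50 below their local background. With the array's median background for those spots, an alternative chosen after seeing the data, the same probes stood at 0.57, 0.36, 0.48, 0.47, 0.12, 0.69 and 0.48. Leaving out a biological replicate or an array moved CXCL10 A_11_P0000020166 from -0.053 to 2.07 and A_11_P058961 from 0.057 to 2.08. CXCL8 A_11_P053586 ran from 0.064 (limma adjusted p = 0.994) to 1.62 (limma adjusted p = 0.0258).

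The counts of called probes were 0 higher and 0 lower, with a smallest adjusted p of 0.0502. They became 396 and 294 with 12 arrays and the extract as a random block, 10 and 4 under normexp, 17 and 7 with median scaling and 90 and 44 for probes well above background on all 12 arrays. They were 85 and 50 with an intensity trend, 16 and 6 with weights on the extracts, and 48 and 23 at an adjusted p under 0.10. Leaving out replicates or arrays gave 0 to 203 higher and 0 to 447 lower. Omitting biological replicate 1 called 203 probes higher and 74 lower, and omitting biological replicate 2 called 200 and 447. Dropping array 6 of the pH 7.0 group called 10 and 5, and dropping array 1 of the pH 7.4 group called 4 and 0. The CXCL12 probe, and CXCL8 A_11_P053586 and CXCL10 A_11_P0000020166, could not be fitted under the filter for all 12 arrays. These 3 probes were well above background on 0, 10 and 11 of 12 arrays, in that order, which limits their values.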
